A study of Mus musculus with 9 samples.

Results

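The genes that encode the proteins of the cytosolic ribosome were followed through 9 RNA-seq libraries of mouse mediobasal hypothalamus. Members were all entries whose symbol is Rpl or Rps followed by a digit, with Rplp0, Rplp1, Rplp2 and Rpsa added and with the kinases of the Rps6k family and symbols ending in -ps left out. This gave 84 genes of 13588 entries, 48 of the large subunit and 36 of the small subunit. The rule uses symbols alone, but it was set with earlier results of these data known. All mice were males of a C57/BL6 line with floxed Snord116 alleles (genotype Snord116tm1Uta/J), injected into the mediobasal hypothalamus at 10 to 12 weeks of age, and brains were frozen 10 weeks later. Controls received AAV-GFP, in which a CMV promoter drives green fluorescent protein, and carried the same floxed alleles (n = 3). The other 6 mice received AAV-Cre, in which CAG, a promoter active in many cell types, drives the recombinase that cuts at the floxed sites. By the study's methods the AAV-Cre stock also had a higher titre than AAV-GFP, so titre and vector differed together. Which cell types lost Snord116 was not measured here. RNA came from laser-captured regions placed by Cre staining in adjacent sections, with matching regions taken from controls, and each library was 1 mouse.

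The AAV-Cre mice had been split by weight gain into subsets of 3. The sample titles and the weight labels contradict each other on which subset was the heavier, so the names used here, "labelled obese" and "labelled nonobese", follow the weight label alone, and any direction between them rests on that label. Snord116 itself was not analysed here. The vectors checked the treatment instead. Cre reads numbered 1011 to 37704 in the 6 AAV-Cre libraries against 0 to 5 in AAV-GFP. They were fewest in labelled obese replicates 1 and 3, at 5912 and 1011, against 19611 to 37704 in the other AAV-Cre libraries. Gfp reads numbered 317 to 350 in AAV-GFP against 0 elsewhere. Total reads ran from 3929672 to 5766994 per library. All 7 neuronal markers listed (Snap25, Syt1 and others) had reads in every library, with a summed signal of 1670 to 2571. Labelled obese replicates 1 and 3 stood apart from the other 7 libraries. In them the 6 listed MHC genes, which mark antigen presentation, summed to 4220 and 4482 against 98.2 to 211 elsewhere, and the 7 listed microglial markers to 880 and 854 against 115 to 158. Plasma and B cell genes (4 listed, Igkc and Jchain among them) summed to 2759 and 4883 there, 70.1 in labelled obese replicate 2 and 1.75 to 44.2 in the 6 others. Of the 4 measured leukocyte markers (Ptprc, Cd3e and others), 1 to 3 had 0 reads in every library but those 2, where they summed to 114 and 94.6. Astrocyte markers were higher there, at 1235 and 1646 against 575 to 832, and the neuronal sum was lower, at 1715 and 1670 against 2053 to 2571.

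Each ribosome joins a large subunit, which forms the peptide bond, to a small subunit, which reads the mRNA. Their proteins are made in nearly equal numbers, and most of their mRNAs begin with a C followed by a run of pyrimidines, the 5′ terminal oligopyrimidine motif, through which the kinase complex mTORC1 sets how well they are translated. Many of the genes also carry small nucleolar RNAs in their introns, and many have processed pseudogene copies elsewhere in the genome. In the hypothalamus mTORC1 is known as a sensor of nutrients and leptin.

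The set was close to, but not the same as, the canonical protein list of the ribosome. It held 45 of 46 canonical large subunit genes and 31 of 31 canonical small subunit genes. Rpl24 was not analysed here. The remaining large subunit entries were the paralogs Rpl22l1, Rpl36al and Rpl7l1. Among the small subunit entries were the paralogs Rps27l, Rps27rt, Rps4l and Rps12l1, the last 2 annotated as processed pseudogenes. Rps19bp1 met the symbol rule too, although it encodes a binding partner of RPS19 and not a ribosomal protein. All 84 genes passed the filter on low values (signal 1 or more, in 3 or more libraries).

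The transcription starts were read for the motif that names this class of mRNA. Of the 84 genes, 62 had a start in the RefSeq table for GRCm38.p6. At 14 of those 62 (22.6%) the listed first base was a C followed by at least 4 pyrimidines, against 3.01% of all 27025 genes in the table. When the run was made longer, a C and at least 7 pyrimidines, and could begin anywhere within 20 bases of the listed start, 32 of 62 genes (51.6%) held it, against 16.6% of all genes. The windows below are those of genes that recur in the results, chosen to show both kinds and so with more runs than the 62 as a whole, printed 5′ to 3′ with 12 bases before the listed start and 18 from it on. Capitals mark a pyrimidine run that begins at the start with a C, and a window all in lower case has none there.
Rps6 (chr4:86857350-86857379, minus strand): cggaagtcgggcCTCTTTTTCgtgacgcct
Rplp2 (chr7:141447639-141447668, plus strand): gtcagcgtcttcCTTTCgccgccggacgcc
Rps18 (chr17:33955648-33955677, minus strand): gtcacttccgctCTCTCTTCCacaggaggc
Rpl38 (chr11:114668568-114668597, plus strand): ggaagcctcgttCTTTCCCCgttctcttcg
Rpl37 (chr15:5116601-5116630, plus strand): ttcctgggcggaagcttatccacaggaagt
Rpl6 (chr5:121204489-121204518, plus strand): tcacctcccgtcattgcttatagaccggaa
Rpl13a (chr7:45128728-45128757, minus strand): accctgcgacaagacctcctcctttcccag

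Upstream of these starts, 25 of 62 genes (40.3%) held the letters CCGGAAG on either strand within the 300 bases from 250 before to 50 after the start, against 9.93% of all genes. The letters TATAAA lay in the 50 bases before the start in 1 of 62, against 3.15% of all genes. Large and small subunit genes held the run at the start itself in 7 of 36 and 7 of 26. These are matches of letters in a fixed window and were not tied to any measurement in these libraries.

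Ribosomal protein mRNAs were among the more abundant transcripts per length of exon. Signal is the read count over the effective library size (total reads times a TMM factor), per 1e6. A level is given here as signal divided by the annotated exon length in kb. Large subunit genes ranged from 6.49 to 342 per kb, with a median of 40.8, and small subunit genes from 8.51 to 211, with a median of 39.8, while the median of all entries tested was 5.06. Highest among large subunit genes were Rplp1, a stalk protein that recruits translation factors (342), Rpl13a (231) and Rpl38 (186). Rpl10a (13.6), Rpl7l1 (12.04) and Rpl18 (6.49) were lowest. Among small subunit genes Rps27rt (211), Rps15 (142) and Rps21 (127) led, and Rps27l (10.4), Rps15a (9.10) and Rps12l1 (8.51) closed the order. Exon length was the union of all annotated transcripts, retained introns included, so a gene such as Rps15a, with 6270 bases of annotated exon, is placed lower than its short mRNA alone would be. Every gene's range over the 9 libraries overlapped that of its neighbours in the order.

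**Figure D1:**
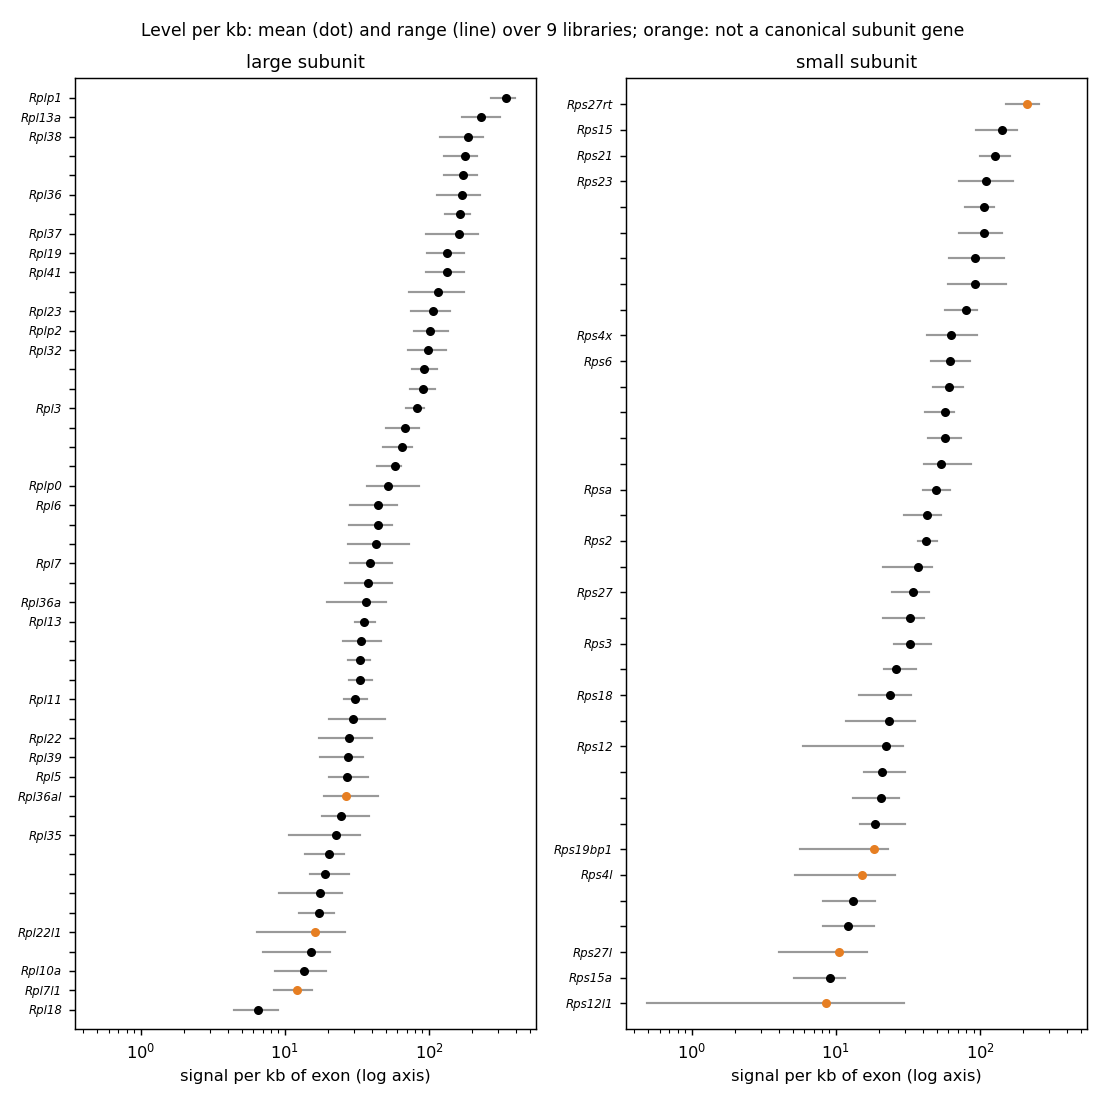
Signal per kb of exon (log axis) for the 48 large subunit genes on the left and the 36 small subunit genes on the right, as the mean over 9 libraries (dot) and the lowest to highest library (line), with genes outside the canonical list in orange and symbols only for genes named in the text. Rplp1 led at 342 and Rpl18 closed the large subunit at 6.49; Rps12l1 had the widest range of all.

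Paralogs were measured beside their canonical partners, and the coding sequences of 1 pair were identical. The first 60 coding bases of Rps27, of its single-exon copy Rps27rt and of the paralog Rps27l are printed below from the GENCODE M21 transcripts, with capitals where a base differs from Rps27.
Rps27: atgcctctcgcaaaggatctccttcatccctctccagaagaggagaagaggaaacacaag
Rps27rt: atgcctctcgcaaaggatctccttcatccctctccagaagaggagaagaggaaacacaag
Rps27l: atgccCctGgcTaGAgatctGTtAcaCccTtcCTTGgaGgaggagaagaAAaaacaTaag
Over all 255 coding bases Rps27 and Rps27rt differed at 0 positions and Rps27l differed from Rps27 at 61 (76.1% identity). Reads in the shared sequence cannot be assigned to 1 of the 2 identical copies. Rps27rt nonetheless held 63.3% to 75.1% of the reads counted for the pair, and how reads mapping to both were counted is not given in the sources used here. Rps27l, whose product replaces RPS27 in some ribosomes, took 9.66% to 31.3% of the reads of its pair with Rps27.

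The other pairs leaned to the canonical gene in nearly every library. Rpl22l1, a paralog of the RNA-binding protein RPL22, held 11.04% of the pair's reads in AAV-GFP replicate 1 and 18.9% to 39.6% in the 8 others. Rpl7l1 held 22.6% to 38.5% of the reads of its pair with Rpl7. Rpl36al held 28.4% to 52.0% of its pair with Rpl36a and reached 52.0% and 50.2% in labelled obese replicates 1 and 2. Rps4l held 3.03% to 17.4% of its pair with Rps4x. Rps12l1 had as few as 1 read in a library, and all of its 50-base windows also lay in transcripts of other genes, so its reads cannot be assigned with certainty. Across the set the share of 50-base windows found in another gene's transcript had a median of 23.1% for large and 24.4% for small subunit genes. It was 50% or more in 5 large and 3 small subunit genes, among them Rpl35 (84.0%) and Rpl36 (81.1%), whose values are therefore uncertain. Rps19bp1 had none.

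The summed level of the ribosomal protein genes differed between libraries, most clearly for the large subunit. Summed large subunit signal was 5340, 4955 and 4676 in AAV-GFP replicates 1 to 3. It was 6522, 6034 and 6148 in the labelled obese libraries and 5532, 5169 and 5659 in the labelled nonobese libraries. All 3 labelled obese libraries thus lay above the other 6, while AAV-GFP and labelled nonobese libraries overlapped. Group means were 4990 ± 334, 6235 ± 256 and 5453 ± 254 (SD, n = 3 each). As a share of all signal in its library, the large subunit sum was 0.577% to 0.667% in labelled obese libraries and 0.486% to 0.563% in the 6 others, again without overlap.

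For small subunit genes the labelled obese libraries lay above AAV-GFP but overlapped the labelled nonobese libraries. Their summed signal was 2552, 2726 and 2631 in AAV-GFP, 3381, 2829 and 3195 in labelled obese, and 2718, 2977 and 3012 in labelled nonobese libraries. Labelled obese replicates 1 and 3 were the highest, and replicate 2 lay among the labelled nonobese libraries. Its share of signal, 0.270%, was also inside the range of the AAV-GFP libraries, 0.255% to 0.286%. Together the 84 genes took 0.759% to 1.01% of all signal, and the ratio of large to small subunit signal stayed between 1.74 and 2.13. No test was made of these sums. Beside the sums, labelled obese replicates 1 and 3 carried the MHC and microglial signal given above, and their part in the sums was not tested. In labelled obese replicate 2 MHC genes summed to 211, against 98.2 to 184 in AAV-GFP and labelled nonobese libraries. Its large subunit genes summed to 6034. All 3 labelled obese libraries were also apart from the other 6 in further marker lists. Oligodendrocyte markers (5 listed) summed to 920, 760 and 936 in those libraries against 1026 to 2241. Endothelial markers (4 listed) summed to 112.7, 95.3 and 119.6 against 57.8 to 86.4. Astrocyte markers (5 listed) summed to 1235, 832 and 1646 against 575 to 788. Plasma and B cell genes summed to 2759, 70.1 and 4883 against 1.75 to 44.2. The part of these cell types in the sums was not tested either. In bulk RNA, fewer cells of a type and less RNA per cell cannot be told apart.

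**Figure D2:**
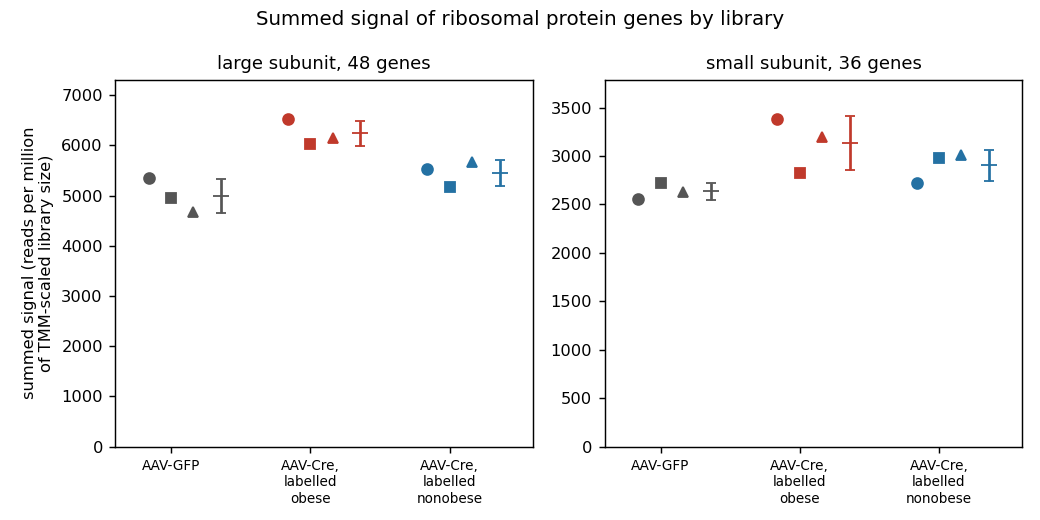
Summed signal (reads per 1e6 of effective library size) of the 48 large and 36 small subunit genes in each library, by group, with replicates 1, 2 and 3 as circle, square and triangle and the mean with SD to the right of each group. The 3 labelled obese libraries lie at 6034 to 6522 in the large subunit panel, above the other 6.

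**Figure D3:**
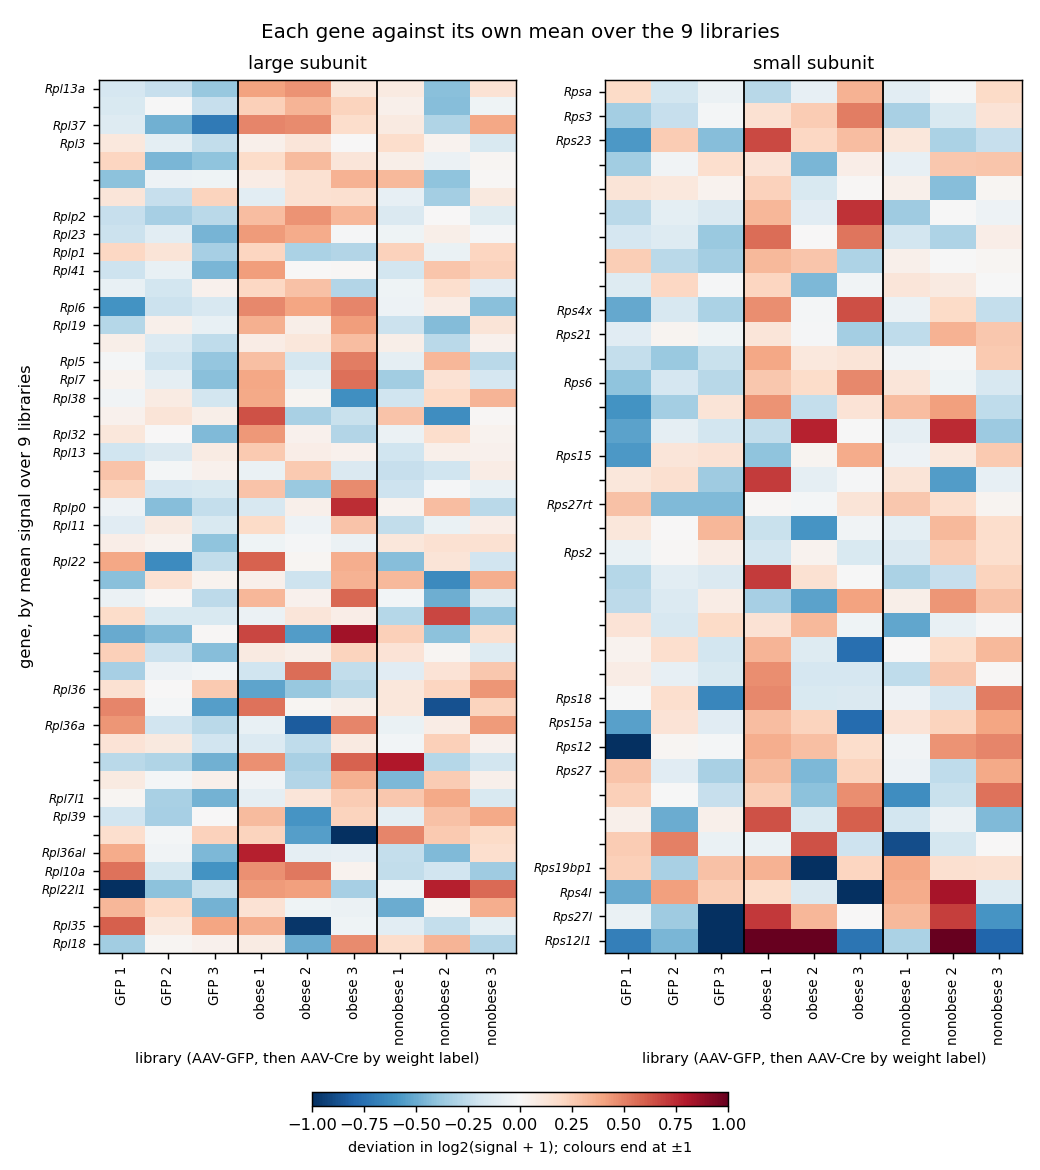
Deviation of each gene in each library from its own mean over 9 libraries, in log2(signal + 1), with genes ordered by mean signal, symbols only for genes named in the text, and libraries by group. Red was most frequent in labelled obese replicate 1, where 37 of 48 large and 29 of 36 small subunit genes were above their own mean, and blue in AAV-GFP replicates 2 and 3.

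Each gene was also set against its own mean over the 9 libraries. In AAV-GFP replicates 1 to 3, 25, 14 and 13 of the 48 large subunit genes were above that mean. The counts were 37, 28 and 33 in labelled obese and 20, 27 and 29 in labelled nonobese libraries. By this count labelled obese replicate 2, apart in the summed large subunit signal, lay among the labelled nonobese libraries. Among small subunit genes they were 14, 14 and 11 in AAV-GFP, 29, 16 and 20 in labelled obese, and 14, 19 and 23 in labelled nonobese libraries. AAV-GFP had the lowest of the 3 group means for 29 of 48 large and 22 of 36 small subunit genes, against 30.6% of all entries tested. The labelled obese mean was the highest for 30 of 48 large and 17 of 36 small subunit genes, against 38.5% of all entries.

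Variation over the 9 libraries was small for most genes. The median SD of log2(signal + 1) was 0.31 for large and 0.33 for small subunit genes, against 0.56 over all entries tested, which have fewer reads. Counting error alone, with reads taken as independent molecules, which amplified libraries do not ensure, would give a median SD of 0.074 and 0.077. Rpl3, which reaches towards the peptidyl transferase centre, was the steadiest with 220 to 295 and an SD of 0.14. Rpl13 and Rps2 followed with an SD of 0.15 each. Rpl22l1 (0.61) varied most in the large subunit, and Rps12l1 (1.17) and Rps12 (0.68) in the small subunit. The genes moved together only loosely. Over the 9 libraries the median Pearson correlation between 2 genes was 0.17 within the large subunit, 0.13 within the small subunit and 0.12 between them, and -0.001 over all pairs of entries. These points share libraries and read depth, and the correlations are a description.

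The first comparison asked which transcripts differ where AAV-Cre mice carry the obese label. It was made on log2(signal + 1) in 1 limma fit of all 9 libraries, with Benjamini-Hochberg adjustment over 13506 entries and a false discovery rate (FDR) under 0.1 as the call. Of the ribosomal protein genes, 1 of 48 in the large subunit rose and 0 of 36 in the small subunit, against 0.555% of all entries called, 0.422% higher and 0.133% lower. At an unadjusted p under 0.05, 7 large and 8 small subunit genes were higher and 1 large subunit gene was lower, while 5.11% of all entries were higher and 4.78% lower. The 3 labelled obese libraries were all above the 3 AAV-GFP libraries for 11 large and 8 small subunit genes, and all below for 1 of each, against 7.18% and 7.27% of all entries. The median difference was 0.22 log2 for large and 0.16 for small subunit genes and -0.04 for all entries tested. A positive difference was found for 37 of 48 and 25 of 36 genes.

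The gene that rose was Rpl37, a large subunit protein with a zinc finger that binds 28S rRNA (ENSMUSG00000041841, chr15:5116645-5119140, plus strand, GRCm38). Its signal was 239, 187 and 159 in AAV-GFP, 367, 363 and 294 in labelled obese, and 278, 212 and 341 in labelled nonobese libraries. Every labelled obese library was above every AAV-GFP library, and the labelled nonobese libraries spanned both. The difference between labelled obese and AAV-GFP was 0.82 log2 (SE 0.19, FDR = 0.0602). Its size stayed between 0.68 and 0.97 in the 23 alternative fits, but the call was lost in 11 of them. It was lost with edgeR's quasi-likelihood test on reads (FDR = 0.116) and on leaving out any AAV-GFP library (FDR = 0.136 to 0.378), labelled obese replicate 1 or 3 (0.337 and 0.122) or labelled nonobese replicate 1 (0.102).

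Behind Rpl37 came large subunit genes that did not pass. Rpl6 was at 89.0, 116 and 121 in AAV-GFP and at 188, 178 and 189 in labelled obese libraries, a difference of 0.78 log2 (SE 0.20, FDR = 0.122). Rplp2, a stalk protein beside Rplp1, was at 176, 164 and 171 against 255, 281 and 260 (0.64 log2, SE 0.17, FDR = 0.121). The groups of these 2 genes did not overlap, and the labelled obese libraries lay within 255 to 281 for Rplp2 and 178 to 189 for Rpl6. Rpl13a, whose product leaves the ribosome to silence inflammatory mRNAs in interferon-treated cells, was at 424, 406 and 366 against 633, 652 and 518 (0.59 log2, SE 0.16, FDR = 0.155). Rpl23, an inhibitor of the p53 ligase MDM2 when free of the ribosome, was at 159, 171 and 133 against 247, 238 and 183 (0.52 log2, FDR = 0.30).

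Rpl36 went the other way. It was at 70.6, 63.6 and 75.9 in AAV-GFP and at 43.6, 48.3 and 52.0 in labelled obese libraries, a difference of -0.54 log2 (SE 0.25, FDR = 0.474). Its labelled nonobese libraries, at 68.4, 73.6 and 86.4, lay with AAV-GFP. With 81.1% of its windows shared with other transcripts, its reads cannot be assigned with certainty.

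In the small subunit the largest differences without overlap were those of Rps12 and Rps27l. Rps12 was at 11.97, 42.7 and 41.4 in AAV-GFP and at 54.2, 52.0 and 47.6 in labelled obese libraries (0.86 log2, SE 0.38, FDR = 0.447). AAV-GFP replicate 1 set that size, since without it the difference was 0.28 log2. Rps27l was at 7.48, 5.94 and 3.30 against 13.5, 10.2 and 7.90 (0.84 log2, SE 0.64, FDR = 0.71), on as few as 17 reads. Rps4x, the canonical partner of Rps4l, was at 69.8, 89.2 and 80.0 against 138, 98.3 and 156 (0.69 log2, FDR = 0.251). Rps23, which lines the decoding centre, was at 90.8, 162 and 101 against 215, 157 and 168 (0.64 log2, FDR = 0.303), with overlap.

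**Figure D4:**
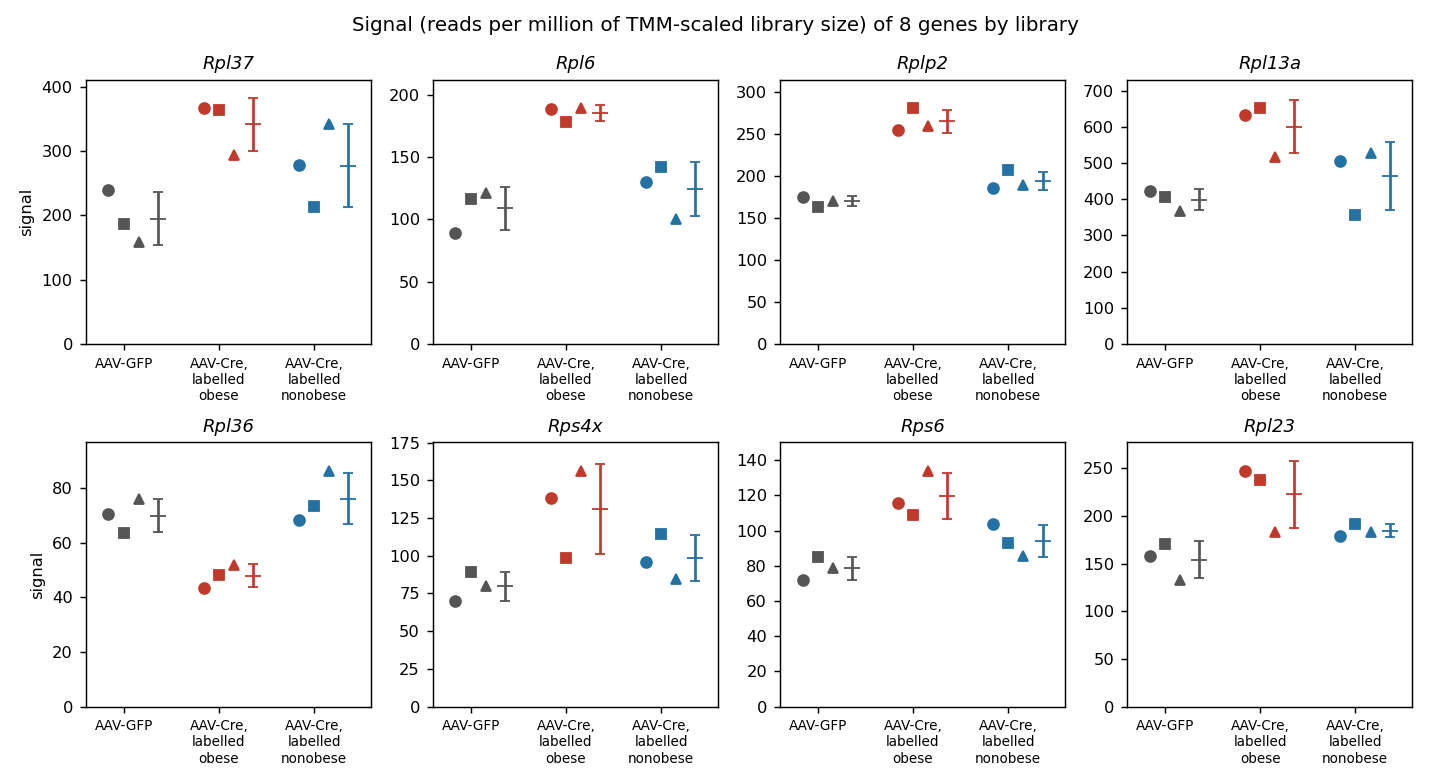
Signal of 8 genes in each library, by group, with replicates 1, 2 and 3 as circle, square and triangle and the mean with SD to the right of each group. Labelled obese libraries lie above AAV-GFP without overlap in 7 panels and below it for Rpl36 (43.6 to 52.0 against 63.6 to 75.9).

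The counts of calls changed with the labelled obese libraries in the fit. Replicate 2 had the lowest MHC signal of the labelled obese libraries. Without it, 5 large and 4 small subunit genes were higher at an FDR under 0.1. Calls over all 13506 entries then rose from 75 to 720 (422 higher and 298 lower). Without replicates 1 and 3 together the labelled obese group was 1 library, assumed to vary like the other groups. Then 0 members and 41 of all entries were called, and the median difference was 0.15 log2 for large and 0.05 for small subunit genes. Rplp2 and Rpl13a were highest in labelled obese replicate 2, at 281 and 652, and Rpl37 was at 363 there. The part of the MHC, microglial and other marker signal in any of these differences was not tested.

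Labelled nonobese libraries were compared with AAV-GFP next. With limma 0 of 48 large and 0 of 36 small subunit genes passed an FDR of 0.1, against 0.0148% of all entries (0.0074% higher and 0.0074% lower). At an unadjusted p under 0.05, 2 large and 1 small subunit genes were higher and 0 were lower, against 1.04% and 1.23% of all entries. All 3 labelled nonobese libraries lay above AAV-GFP for 4 large and 2 small subunit genes and below for 1 large subunit gene, against 4.57% and 5.15% of all entries. The edgeR and DESeq2 tests on reads also called 0. Median differences were 0.12 log2 for large and 0.15 for small subunit genes, against -0.02 for all entries, with 33 of 48 and 29 of 36 genes positive. Rpl22l1 had the largest difference without overlap, with 29.0, 51.9 and 44.6 in labelled nonobese against 12.7, 22.2 and 25.4 in AAV-GFP libraries (1.03 log2, SE 0.38, FDR = 0.999). Its partner Rpl22 was at 57.7, 85.4 and 68.1 against 102, 50.2 and 65.4 (-0.0018 log2, SE 0.27), with overlap. Rpl35 was at 24.8, 22.5 and 24.97 against 41.1, 28.9 and 35.5 (-0.51 log2, SE 0.39, FDR = 0.999), and 84.0% of its windows are shared. Rps6 was at 104, 93.0 and 85.6 against 72.1, 85.0 and 78.8 (0.26 log2, SE 0.22), and its lowest labelled nonobese library exceeded the highest control by less than 1 unit of signal.

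All 6 AAV-Cre libraries against AAV-GFP gave the same count of 0 and 0 called with limma, against 0.0444% of all entries (0.037% higher and 0.0074% lower), and 0 with edgeR and DESeq2. At an unadjusted p under 0.05, 7 large and 4 small subunit genes were higher and 0 lower, against 2.40% and 1.91% of all entries. The median difference was 0.15 log2 for large and 0.17 for small subunit genes, and -0.03 for all entries. In 4 genes all 6 AAV-Cre libraries were above all 3 AAV-GFP libraries, against 0.933% of all entries, and in 0 were all 6 below, against 1.08%. Among them were Rplp2 (176, 164 and 171 in AAV-GFP against 186 to 281, median 231), Rpl23 (133 to 171 against 179 to 247) and Rps6, the substrate by which S6 kinase activity is read (72.1 to 85.0 against 85.6 to 134). Their differences were 0.41, 0.40 and 0.43 log2, each with an FDR of 0.991. The 3 comparisons with AAV-GFP share its libraries, so their values are given side by side and not as separate support.

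**Figure D5:**
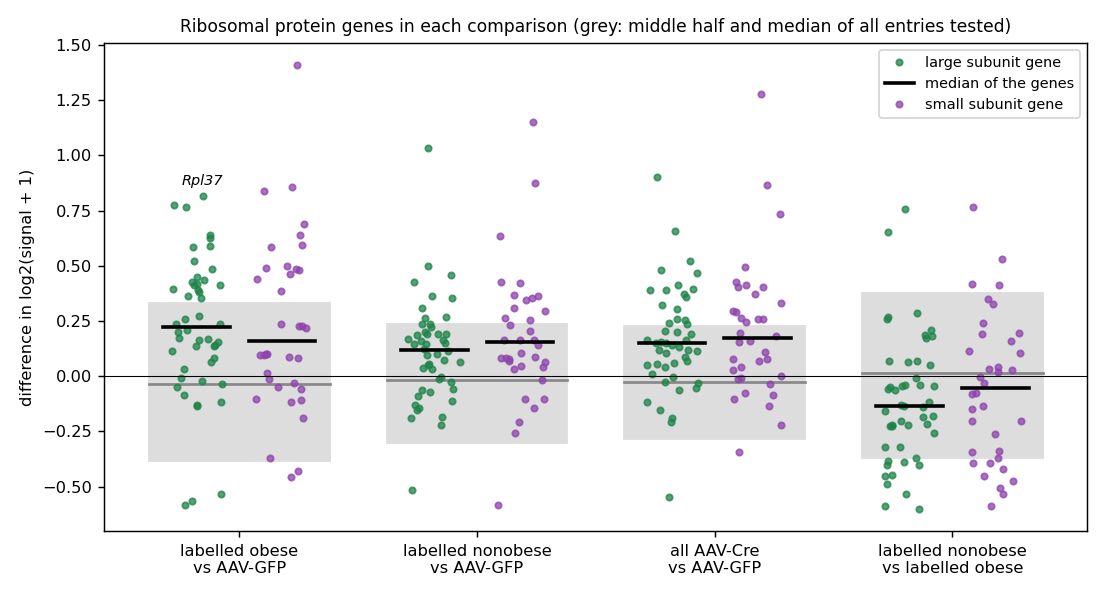
Difference in log2(signal + 1) of each large (green) and small (purple) subunit gene in the 4 comparisons, with black bars at the medians of the genes and grey boxes and lines for the interquartile range and median of all 13506 entries. Medians were 0.05 to 0.22 from 0 in every comparison, and Rpl37 is the only gene with an FDR under 0.1.

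Between the AAV-Cre subsets, 0 of 48 large and 0 of 36 small subunit genes were called with limma, against 0.948% of all entries (0.215% higher and 0.733% lower). At an unadjusted p under 0.05, 6 large and 4 small subunit genes were lower in labelled nonobese libraries and 2 and 0 higher, against 6.26% lower and 5.13% higher over all entries. Groups did not overlap for 7 large and 3 small subunit genes that were lower and for 2 and 0 that were higher, against 6.65% and 6.61% of all entries. With edgeR's quasi-likelihood test 0 were called, and with DESeq2 1, Rplp2, where DESeq2 called 389 of all entries against 128 with limma. The median difference of labelled nonobese from labelled obese was -0.14 log2 for large and -0.05 for small subunit genes, against 0.02 for all entries. Over the 23 alternatives the small subunit median ran from -0.10 to 0.04 log2 and so changed sign.
Rpl6 was at 130, 142 and 101 in labelled nonobese against 188, 178 and 189 in labelled obese libraries (-0.59 log2, SE 0.20, FDR = 0.239). Rplp2 was at 186, 207 and 190 against 255, 281 and 260 (-0.45 log2, SE 0.17, FDR = 0.283). The groups of these 2 genes did not overlap. Rpl36 had the largest difference without overlap in the large subunit, 0.65 log2 higher in labelled nonobese libraries (SE 0.25, FDR = 0.299), and Rpl10a the largest in the other direction (26.8, 27.8 and 24.8 against 44.1, 46.3 and 32.8, or -0.60 log2, SE 0.36, FDR = 0.536). Rps23 (147, 109 and 115 against 215, 157 and 168, -0.54 log2) and Rps3, at the mRNA entry site (115, 130 and 159 against 161, 172 and 206, -0.42 log2), had the largest differences without overlap in the small subunit.

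Members are given next by role; differences between members of 1 structure were not tested. In the stalk, Rplp2 lay above AAV-GFP in all 6 AAV-Cre libraries, while Rplp1 was at 195, 185 and 134 in AAV-GFP, 196, 135 and 138 in labelled obese, and 198, 161 and 196 in labelled nonobese libraries, with overlap throughout. Rplp0, which anchors both, was at 80.8, 62.0 and 70.7, then 74.9, 86.9 and 140, then 85.9, 104 and 69.4. Its difference in labelled obese libraries was 0.45 log2 (SE 0.26, FDR = 0.581), with the highest value in replicate 3. The 5S RNP proteins Rpl5 and Rpl11, which bind MDM2 when ribosome assembly fails, had labelled obese differences of 0.41 log2 (SE 0.23) and 0.20 log2 (SE 0.23). For Rpl11 the range over all 9 libraries was only 69.5 to 101.
At the tunnel exit, Rpl39 ranged from 24.96 to 49.9 over the 9 libraries with overlap in every comparison. Rpl41, the smallest ribosomal protein, was at 133, 145 and 111 in AAV-GFP against 205, 153 and 154 in labelled obese libraries (0.39 log2, SE 0.20, FDR = 0.538). Rpsa, also known as the laminin receptor, was at 128 to 197 over the 9 libraries. Its difference was 0.01 log2 (SE 0.20) in labelled obese and 0.04 log2 (SE 0.20) in labelled nonobese libraries.

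Several members serve as reference genes in quantitative PCR, and their values are given together. Rpl13a differed by 0.59 log2 between labelled obese and AAV-GFP libraries without overlap and ranged 1.83-fold over the 9 libraries. Rpl19 was at 110, 139 and 127 in AAV-GFP, 172, 140 and 180 in labelled obese, and 115, 99.0 and 147 in labelled nonobese libraries, a range of 1.82-fold. Rplp0 and Rps18 ranged 2.26-fold and 2.28-fold and Rpl32 1.84-fold, with their groups overlapping in every comparison. Rpl3, with a range of 1.34-fold, was the steadiest of the 84.

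Many members lie around snoRNA genes. Of the 84, 30 had at least 1 annotated snoRNA within the gene, 20 large and 10 small subunit genes with 39 and 19 snoRNAs, and in 16 of the large and 8 of the small subunit hosts a snoRNA touched an annotated exon. Rpl37 holds Snord72, Rplp2 holds Snora52, Rpl23 holds Snora21 and Gm27326, and Rpl13a holds Snord32a, Snord33, Snord34 and Snord35a. In labelled obese against AAV-GFP libraries the median difference was 0.32 log2 over the 30 host genes and 0.15 over the 54 others. Labelled nonobese against AAV-GFP gave 0.09 and 0.15, and labelled nonobese against labelled obese -0.22 and -0.04. A total RNA library can hold reads of introns and of their snoRNAs, and how much of a host gene's count they make up was not tested.

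Other genes of translation were read from lists as a frame. Fau and Rack1 encode ribosomal proteins under other symbols. Fau was at 71.8, 75.6 and 101 in AAV-GFP, 174, 124 and 145 in labelled obese, and 102, 119 and 108 in labelled nonobese libraries (0.83 log2 in labelled obese, SE 0.22, FDR = 0.115). Rack1 was at 85.8 to 99.2 in AAV-GFP and at 134, 113 and 142 in labelled obese libraries (0.49 log2, FDR = 0.433). Of 36 initiation factors 1 rose in labelled obese against AAV-GFP libraries, where 0.422% of all entries were called higher. This was Eif3a, a scaffold of the factor that loads the small subunit. It rose from 432, 443 and 434 to 662, 614 and 663 (0.57 log2, SE 0.14, FDR = 0.0878). The initiation list's median was 0.03 log2.
Between the subsets, 1 initiation and 1 of 13 elongation or termination factors were called lower in labelled nonobese than in labelled obese libraries. The share called lower over all entries was 0.733%. Eef1a1, which brings aminoacyl-tRNA to the ribosome, was at 696.5, 707.2 and 628.4 against 933, 982 and 980 (-0.51 log2, SE 0.13, FDR = 0.0842). Pabpc1, the poly(A)-binding protein, was at 79.1, 122 and 45.7 against 215, 113 and 229 (-1.21 log2, SE 0.29, FDR = 0.0574), with labelled obese replicate 2 inside the labelled nonobese range. In AAV-GFP libraries Eef1a1 was at 723, 738 and 712 and Pabpc1 at 91.5, 95.6 and 87.8. Against AAV-GFP their differences were 0.41 and 0.95 log2 in labelled obese and -0.10 and -0.26 log2 in labelled nonobese libraries. None of 48 ribosome biogenesis factors, 26 mTORC1 pathway genes and 76 mitochondrial ribosomal protein genes was called in any of the 4 comparisons with limma. At an unadjusted p under 0.05 in labelled obese against AAV-GFP, 1 of each list was higher and 1 lower. Over all entries 5.11% were higher and 4.78% lower at that threshold. The mitochondrial ribosomal proteins, which build a separate ribosome, had median differences of -0.02 log2 in labelled obese and 0.11 in labelled nonobese libraries against AAV-GFP.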

How the data were processed

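RNA-seq was done on 9 libraries, each 1 mouse. Per the labels and the study's methods, RNA was amplified and made into stranded total RNA libraries with the SMARTer Pico kit and sequenced as single-end reads. The submitters' processing notes name CASAVA 1.7, TopHat2 2.0.11, HTSeq, edgeR and limma, with genome GRCm38. The deposited values are signal, which the authors made as reads per gene over a TMM-scaled library size, per 1e6. They are not plain CPM, as had been assumed when the tests were planned; the planned test was kept. Whole reads were recovered from 100% of values (tolerance 0.01), so 3 reads equal a signal of 0.525 to 0.786. The lowest total of an entry was 50 reads, and 0 value columns belonged to other samples. The stranded setting of the counting is not given in the sources used here.

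Of 13586 Ensembl identifiers, 13446 had a symbol. The table had 13588 entries, and 13506 whose signal was 1 or more in 3 or more libraries were tested. log2(signal + 1) was fitted with limma 3.58.1 (R 4.3.3) in 1 model of all 3 groups with a variance trend, p-values were adjusted by Benjamini-Hochberg over all entries tested, and an FDR under 0.1 was called; differences on this scale understate those of low genes. Alternatives were other pseudocounts (0.1 and 5), filters, scalings, a replicate term, edgeR 4.0.16 and DESeq2 1.42.0 on reads, and leaving out libraries. The tests were also run on simulated counts with the same dispersion for every gene. That run does not show how they perform on these libraries. Replicates are separate mice, and the SE given with a difference is from the limma fit and so includes variation between mice. The level of 3 reads concerns counting error only. Gene models, snoRNAs and shared windows of 50 bases came from GENCODE M21 (GRCm38), and starts from RefSeq.

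Named genes were, in each subunit, the 3 highest and 3 lowest per kb, any called gene, in each comparison the 2 largest differences without overlap, paralogs with their partners, members with fixed roles or used as reference genes, and the 2 most and 2 least variable. The members and lists were chosen with earlier results of these data known. The authors' own comparisons were not used. Some genes that this rule names are not reported here.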

Additional observations from a re-analysis of the deposited data

Results flagged for a closer look

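Of 50 values looked at over the 6 AAV-Cre libraries (named genes, sums and paralog shares), 1 had a library far from the others by Dixon's test at 95%. Rps15a was at 32.1 in labelled obese replicate 3 and at 60.7 to 72.8 in the other 5 AAV-Cre libraries, a gap of 0.704 of the whole range, above the limit of 0.625. Chance alone flags about 1 in 20 such groups. Groups of 3 libraries were not tested this way. No ribosomal protein gene differed between the AAV-Cre subsets at an FDR under 0.1 with limma.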

How the results depend on the processing

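Main counts of genes called were 1 large and 0 small subunit genes in labelled obese against AAV-GFP and 0 elsewhere. The large subunit count became 0 with a pseudocount of 0.1, on centring libraries on their medians, without a variance trend, with edgeR's quasi-likelihood test and without labelled obese replicates 1 and 3 together, which leaves that group 1 library. It became 3 with a pseudocount of 5 and with edgeR's likelihood ratio test, and 4 with DESeq2. With a replicate block it was 4. Calls over all entries rose too, from 75 to 143, 260, 275 and 200 in that order. Same-numbered libraries correlated at -0.02 to 0.09 in their deviations, so the numbers are not taken to pair mice. Leaving out 1 library at a time gave 0 to 5 large and 0 to 4 small subunit genes, the highest without labelled obese replicate 2, where 720 of all entries were called. Median differences there were 0.16 to 0.33 log2 for the large subunit (0.33 without labelled obese replicate 2), and 0.046 for the small subunit (main 0.16) without replicates 1 and 3. Between the subsets, DESeq2 called 1 large subunit gene (389 of all entries), and leaving out 1 library gave 0 to 2 small subunit genes. The 2 were called without labelled obese replicate 2, where 908 of all entries were called against 128 in the main fit. The large subunit median between the subsets was -0.032 (main -0.14) without labelled obese replicates 1 and 3. The small subunit median between the subsets (main -0.05) was above 0 on centring and without labelled obese replicate 1, labelled nonobese replicate 1 or labelled obese replicates 1 and 3. In labelled nonobese and in all AAV-Cre libraries against AAV-GFP, 0 members were called under all 23 alternatives. No difference of a named gene that was refitted under the alternatives changed sign. Scaling moved the median of all entries by less than 0.1 log2, and rescaling libraries to equal totals changed the split of all calls in labelled obese against AAV-GFP from 57 higher and 18 lower to 52 and 28. Causes were not tested. Depth limits the lowest genes, Rps12l1 (1 read in its lowest library) and Rps27l (17 reads).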

Other observations

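Other marker lists gave these summed signals. Red cell genes (4 listed) summed to 15.7 to 28.9 in AAV-GFP, 5.90 to 25.8 in labelled obese and 22.8 to 36.7 in labelled nonobese libraries. Of the tanycyte and ependymal markers, 1 of 4 had an entry, at 4.47 to 32.2 over all libraries.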
